A study of Homo sapiens with 6 samples.

Results

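The mitosis genes are 47 genes whose products carry out or control the division of the nucleus and of the cell, followed here in LNCaP cells exposed to dihydrotestosterone (DHT), a potent androgen. They were found in the deposited table by symbol, with older and newer symbols allowed, so DLGAP5 was read from the row named DLG7, and CDC2 is the older name of CDK1. Of the 47, 46 averaged 20 counts or more per library and are called measured, among 11916 measured genes and 17990 genes in all. The exception was KIF18A, a kinesin, with 7, 8, 18, 19, 10 and 23 counts in the order of time. LNCaP is a human prostate cancer line that responds to androgens. All cells were kept for 3 days in phenol red-free medium with charcoal/dextran-treated serum before treatment. There was 1 library of untreated cells at 0 h and 1 library each at 3, 6, 12, 24 and 48 h with 10 nM DHT. Time and treatment therefore cannot be told apart, all comparisons with 0 h share 1 library, and there is no spread between replicates and no test across samples.

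Cells build most of these transcripts up in the G2 phase of the cell cycle and let them go after division, so that in a dividing population their summed level follows the share of cells near mitosis. Cyclin B with the kinase CDK1 drives entry into mitosis, the spindle assembly checkpoint holds chromosome separation back until the kinetochores are attached, and the anaphase promoting complex then marks securin and cyclin B for destruction. Many of the genes are under the control of the DREAM and MuvB complexes, which act through a short promoter element called the cell cycle genes homology region (CHR), together with the factors MYBL2 and FOXM1 and with NF-Y at CCAAT boxes.

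The libraries held 13179917 to 20587956 counts, the most at 24 h, and 15079 to 15589 genes had a read. Levels are given in CPM, which puts the libraries on a common total, and a change is log2 of (CPM + 1) over (CPM + 1) at 0 h; higher and lower mean by at least 2-fold on this scale unless a value is given. Ratios of CPM carry 95% intervals for counting error only. The luminal prostate markers were all measured (9 of 9), at 8480 to 22139 CPM in sum. Of the basal markers 1 of 5 was measured (DST; sum 3.33 to 13.4 CPM), of the leukocyte markers 1 (CD68; sum 13.6 to 19.1 CPM, CD3D at 0 counts in every library), and of the fibroblast markers 2 of 7 (COL1A1 and COL3A1; sum 32.5 to 72.8 CPM). The fibroblast sum was 71.2 CPM at 0 h and 32.5 CPM at 24 h, where the mitosis genes were also low; its part in the result was not tested. In the 12 h library, genes on chromosome 4 and distal chromosome 15 were not used, which left 41 measured members there, without CCNA2, CENPE, KIF23, MAD2L1 and PRC1.

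At 24 h 23 of the 46 measured members were at least 2-fold lower than at 0 h (10.8% of all measured genes were) and 0 were higher (10.5%). Their median log2 change was -0.97, against -0.09 over all measured genes. The 95% interval of the ratio, for counting error only, lay below 1 for 37 members and above 1 for 2, CDC2 and BUB3. The share of all measured genes with such intervals was not counted. In 38 members the 24 h library held the lowest of all levels used, against 22.4% of all measured genes. Summed over the members used at every time, the level was 984 CPM at 0 h, 1415 at 3 h, 1101 at 6 h, 958 at 12 h, 483 at 24 h and 733 at 48 h. In bulk RNA, fewer cells in mitosis and less of these transcripts per cell cannot be told apart.

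The change depended on the base composition of the transcript. GC content ran from 35.3 to 59.9% among the members, with a median of 45.0% against 49.5% over all genes. Across the members the change correlated with it at r = 0.61 at 3 h, -0.85 at 6 h, -0.85 at 12 h (n = 41), -0.68 at 24 h and -0.79 at 48 h (n = 46 at the other times), and across all genes at 0.23, -0.74, -0.62, -0.51 and -0.56. The members share these libraries, so the correlations are descriptions. Each change is therefore also given with the trend over all genes removed, called GC-corrected. Corrected changes correlated with GC content across the members at r = 0.41 at 3 h, -0.25 at 6 h, -0.31 at 12 h, -0.07 at 24 h and -0.28 at 48 h. At 24 h 30 members were then lower (6.58% of the 11140 genes whose GC content was known) and 0 higher (7.09%), with a median of -1.11. Of the 23 members, 20 stayed lower. CDC25B, MYBL2 and UBE2S, with the high GC contents of 59.0, 59.9 and 55.7%, stood at -0.70, -0.79 and -0.66, short of 2-fold. The 10 others that then passed were BUB1, CCNA2, CENPF, DLGAP5, HMMR, NDC80, NUF2, NUSAP1, SPC25 and TOP2A.

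**Figure D1:**
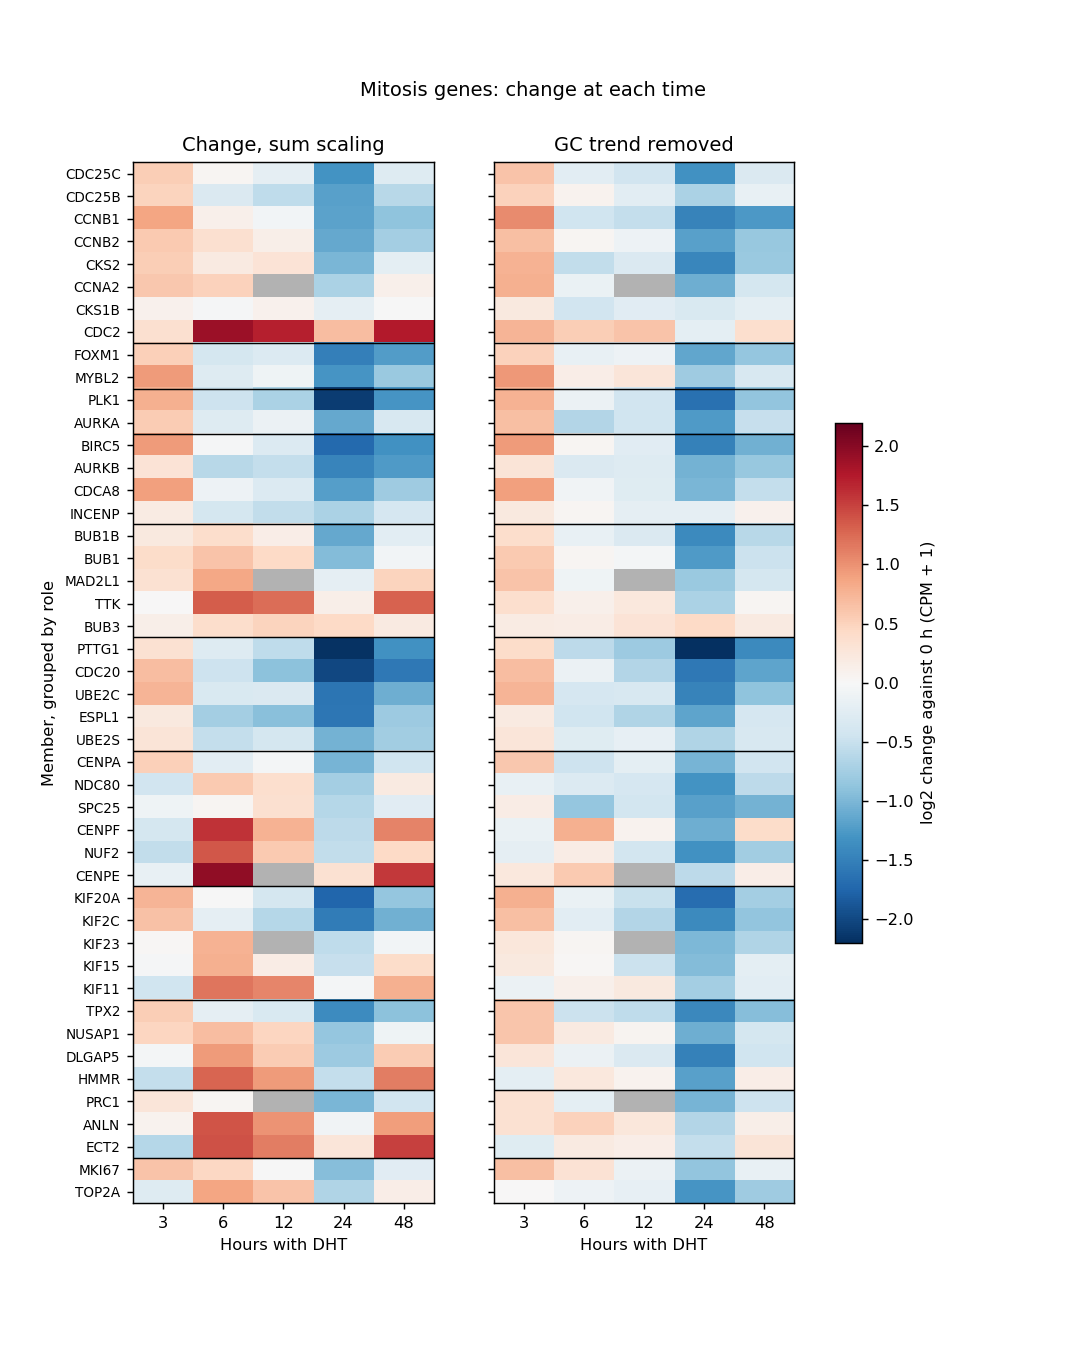
Log2 change against 0 h of the 46 measured mitosis genes (rows, in blocks by role) at 3, 6, 12, 24 and 48 h with DHT (columns), as scaled to the sum of counts (left) and with the trend on GC content removed (right); red is higher, blue is lower, and grey marks the 5 members not used at 12 h. The 24 h column is blue for 41 of 46 members on the left, and the red cells at 6 and 48 h, led by CDC2 and CENPE, are paler on the right.

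Promoters are shown here for 5 members because the genes moved in like and in unlike ways: PLK1, CDC20 and CCNB2 were at least 2-fold lower at 24 h, while CDC2 and HMMR were not and were higher at 6 and 48 h. With the GC trend removed, HMMR was at 0.24, -1.20 and 0.14 at 6, 24 and 48 h and CDC2 at 0.54, -0.21 and 0.38, so that HMMR was also lower at 24 h and neither was higher by 2-fold. The sequences are the 150 bases before the RefSeq start on GRCh38.p14, 5′ to 3′ on the strand of the gene, which is the plus strand for all 5. Capitals mark the CHR-like hexamers TTTGAA and TTCGAA and the CCAAT box, on either strand, so that on the opposite strand they read TTCAAA and ATTGG. The windows are PLK1 at chr16:23678739-23678888, CDC20 at chr1:43358831-43358980, CCNB2 at chr15:59104996-59105145, CDC2 at chr10:60778328-60778477 (the downstream of its RefSeq starts) and HMMR at chr5:163460482-163460631.
PLK1: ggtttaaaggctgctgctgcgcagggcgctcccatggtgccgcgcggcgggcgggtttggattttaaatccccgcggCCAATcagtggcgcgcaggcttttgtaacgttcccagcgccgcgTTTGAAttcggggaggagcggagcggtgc
CDC20: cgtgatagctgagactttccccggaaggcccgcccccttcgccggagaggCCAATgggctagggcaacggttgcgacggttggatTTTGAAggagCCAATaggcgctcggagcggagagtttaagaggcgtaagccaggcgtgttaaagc
CCNB2: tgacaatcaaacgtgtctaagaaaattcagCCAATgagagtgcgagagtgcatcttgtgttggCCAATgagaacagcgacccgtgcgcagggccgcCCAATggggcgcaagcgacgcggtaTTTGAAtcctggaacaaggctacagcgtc
CDC2: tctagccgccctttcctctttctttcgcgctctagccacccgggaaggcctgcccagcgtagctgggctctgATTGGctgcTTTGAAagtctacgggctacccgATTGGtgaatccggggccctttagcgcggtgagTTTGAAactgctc
HMMR: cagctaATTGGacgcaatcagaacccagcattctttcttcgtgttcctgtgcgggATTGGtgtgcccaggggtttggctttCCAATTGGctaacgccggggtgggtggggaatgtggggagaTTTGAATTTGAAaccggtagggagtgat
PLK1 holds TTTGAA with its first base 29 bases before the start and a CCAAT box at 73, and CCNB2 holds TTTGAA at the same distance. CDC2 holds TTTGAA at 69 and 13 bases before the start, with ATTGG at 78 and 46. In HMMR TTTGAA occurs at 28 and 22, back to back, and CCAAT and ATTGG overlap in CCAATTGG.

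Of the 47 members 40 matched the promoter table, read over 250 bases before the start; AURKA, BIRC5, BUB3, FOXM1, TPX2, TTK and UBE2C did not. TTTGAA was found on either strand in 24 of 40 (60%), against 11.6% of 9548 measured genes and 16.1% of 27305 genes in the table. TTCGAA, which reads the same on both strands, was in 1 (2.5%, against 1.99% of measured genes), and the union of both hexamers in 25 (62.5%, against 13.1%). CCAAT was in 32 (80%), against 42.3%. The E2F-like GCGCGAAA was in 1 (2.5%, against 1.01%) and TTCCCGCC in 3 (7.5%, against 5.74%). Of 24 measured members with a CHR-like hexamer 11 were lower at 24 h, with a median of -0.86 (GC-corrected 14 and -1.02), and of 15 without it 7 were, with a median of -0.95 (corrected 11 and -1.07). CCNB1 and CENPF have no such hexamer in the window. A hexamer counted at any distance in the window, in SPC25 at 247 bases before the start, and other forms of the CHR were not searched. With CCAAT 15 of 31 were lower (median -0.95, corrected 21 and -1.07) and without it 3 of 8 (median -0.65, corrected 4 and -1.13). A match is a description of the letters, not of a bound site.

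Of the cyclins, CDK1 and its activators, 5 of 8 were lower at 24 h (5 also after GC correction). CCNB1, which encodes cyclin B1, was at 66.2, 122, 71.7, 63.5, 28.6 and 35.4 CPM in the order of time, from 0 h to 48 h. It was high at 3 h, close to the 0 h level at 6 and 12 h and lowest at 24 h, with a ratio of 0.431 (0.388 to 0.479) to 0 h. CDC25C, a phosphatase that activates CDK1, was at 5.69, 8.79, 5.89, 4.84, 1.70 and 4.52 CPM, a ratio of 0.299 (0.194 to 0.452) at 24 h. CCNB2 had a log2 change of -1.13, the related phosphatase CDC25B -1.19 and CKS2, a small CDK-binding protein, -1.002, on the threshold. CCNA2 (cyclin A2) was at -0.70 and CKS1B, the paralog of CKS2, at -0.19, with an interval that includes 1.

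CDC2, the kinase itself, did not share the low level of its cyclins. It was at 6.90, 9.14, 28.0, 24.7, 11.7 and 25.6 CPM, so that the 24 h level lay above 0 h (ratio 1.69, 1.32 to 2.17) and the 6 h level was 4.05 times 0 h (3.21 to 5.15). With a GC content of 35.6%, its GC-corrected changes were 0.74, 0.54, 0.63, -0.21 and 0.38 in the order of time, against 0.36, 1.87, 1.70, 0.68 and 1.75 uncorrected. In both forms the 24 h value was the lowest from 6 h on.

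Both transcription factors of the set were lower at 24 h. FOXM1, which drives late cell cycle genes, was at 80.3, 116, 61.0, 65.3, 27.8 and 33.7 CPM (24 h ratio 0.346, 0.312 to 0.383). MYBL2, the partner of the MuvB core at these promoters, was at 41.0, 79.1, 33.4, 38.4, 16.0 and 22.9 CPM (24 h ratio 0.390, 0.339 to 0.448). In each the 24 h level was the lowest and the 48 h level the next lowest. GC-corrected, FOXM1 stood at -1.15 and MYBL2 at -0.79.

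The mitotic kinases were also both lower. PLK1, which acts from mitotic entry to cytokinesis, was at 41.7, 72.1, 30.1, 25.4, 9.03 and 16.4 CPM. Its 24 h ratio of 0.216 (0.182 to 0.256) and log2 change of -2.09 (GC-corrected -1.65) were among the lowest of the members. AURKA, a kinase of the spindle poles, was at 12.1, 18.3, 9.77, 10.9, 5.003 and 9.24 CPM (24 h ratio 0.415, 0.320 to 0.535). Of the chromosomal passenger complex, which corrects wrong attachments and acts in cytokinesis, 3 of 4 were lower at 24 h, before and after correction. BIRC5 (survivin) was at 38.2, 74.3, 37.6, 30.7, 11.03 and 14.6 CPM, a 24 h ratio of 0.289 (0.246 to 0.339), the kinase gene AURKB was at -1.45 and CDCA8 (borealin) at -1.21. INCENP, the scaffold, was at 50.4, 57.4, 38.4, 34.3, 30.6 and 38.9 CPM, with a 24 h change of -0.70 that was -0.19 after correction.

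All 5 partners of the anaphase promoting complex and separase were lower at 24 h (4 after correction), the only role group of more than 2 members of which this held. PTTG1 (securin), the inhibitor of separase, had the lowest change of all members. It was at 25.6, 32.4, 20.9, 17.0, 4.86 and 9.50 CPM, a 24 h ratio of 0.190 (0.150 to 0.238) and a log2 change of -2.18, or -2.23 GC-corrected. CDC20, an activator of the complex, was at -1.995, its ubiquitin-conjugating enzyme UBE2C at -1.61 and ESPL1 (separase) at -1.59. UBE2S, which extends ubiquitin chains, was at 29.9, 36.4, 20.4, 22.5, 14.04 and 17.3 CPM (-1.04, GC-corrected -0.66).

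The spindle assembly checkpoint genes differed among themselves, with 1 of 5 lower at 24 h (2 after correction). BUB1B, whose product BubR1 inhibits CDC20, was at 17.8, 20.8, 23.6, 19.8, 7.63 and 14.9 CPM (24 h ratio 0.430, 0.349 to 0.528). The kinase gene BUB1 was at -0.95, just outside 2-fold, and MAD2L1 and the kinase gene TTK were at -0.20 and 0.12 (GC-corrected -0.81 and -0.69), both with intervals that include 1. BUB3 was at 62.0, 67.5, 81.7, 87.3, 84.1 and 71.6 CPM, above 0 h in every DHT library, with a 24 h ratio of 1.36 (1.25 to 1.48). It was the only measured member that lay above the GC trend of all genes at 24 h (0.44). Per kilobase of transcript it also had the highest level of the measured members, 45.5 CPM at 0 h and 61.8 at 24 h, and CENPE the lowest, 0.115 and 0.175.

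Kinetochore and centromere genes were lower at 24 h mainly after correction, in 5 of 6 against 1 of 6 before. CENPA, the histone H3 variant of centromeres, was at 3.41, 5.39, 2.76, 3.30, 1.17 and 2.26 CPM, from 24 counts at 24 h (ratio 0.341, 0.199 to 0.572). NDC80, NUF2 and SPC25, subunits of the complex that binds microtubules, were at -0.75, -0.54 and -0.63 (GC-corrected -1.31, -1.34 and -1.19). CENPF was at -0.58 (corrected -1.07). CENPE, the kinetochore kinesin, was at 0.986, 0.779, 6.64, 1.51 and 4.85 CPM at 0, 3, 6, 24 and 48 h; its 24 h ratio of 1.53 (0.776 to 3.18) includes 1, and 0 h rests on 13 counts.

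Of the 5 measured mitotic kinesins 2 were lower at 24 h, before and after correction. KIF20A, a kinesin of the central spindle, was at 27.4, 46.5, 27.4, 20.8, 7.48 and 14.8 CPM (ratio 0.273, 0.225 to 0.331), and KIF2C, which takes microtubules apart, was at -1.55. KIF11, the motor that pushes the spindle poles apart, was at 5.92, 4.11, 14.6, 13.6, 5.68 and 10.9 CPM, so that the 24 h level matched 0 h (ratio 0.960, 0.715 to 1.30) but lay below 6, 12 and 48 h; its GC-corrected change at 24 h was -0.74. KIF15 and KIF23 were at -0.50 and -0.56.

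Of the spindle assembly proteins TPX2, an activator of AURKA, was at 52.3, 76.2, 45.5, 41.3, 19.4 and 27.6 CPM (24 h ratio 0.372, 0.328 to 0.421), and was the 1 of 4 that was lower; after correction all 4 were. HMMR was at 4.63, 2.91, 12.6, 9.76, 2.91 and 11.3 CPM, low at 3 and 24 h and high at 6, 12 and 48 h. DLGAP5 and NUSAP1 were at -0.79 and -0.85. Of the cytokinesis genes PRC1, which bundles the central spindle, was at 48.1, 58.2, 49.6, 23.5 and 35.8 CPM at 0, 3, 6, 24 and 48 h, and its -1.003 at 24 h lay on the threshold. ECT2, which activates RhoA at the cleavage furrow, was at 9.18, 5.60, 26.0, 21.2, 11.3 and 27.7 CPM, and ANLN (anillin) was at -0.08 (GC-corrected -0.64).

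The proliferation markers MKI67 and TOP2A were lowest at 24 h. MKI67, which encodes the Ki-67 antigen, was at 66.0, 103, 91.3, 65.4, 34.2 and 55.2 CPM (24 h ratio 0.518, 0.468 to 0.573; log2 change -0.93, GC-corrected -0.86). TOP2A, a topoisomerase that untangles sister chromatids, was at 26.7, 21.8, 49.7, 41.9, 16.6 and 29.5 CPM (24 h ratio 0.620, 0.533 to 0.722; log2 change -0.66, GC-corrected -1.30). MKI67 lay just short of 2-fold in both forms, and TOP2A passed it after correction only.

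**Figure D2:**
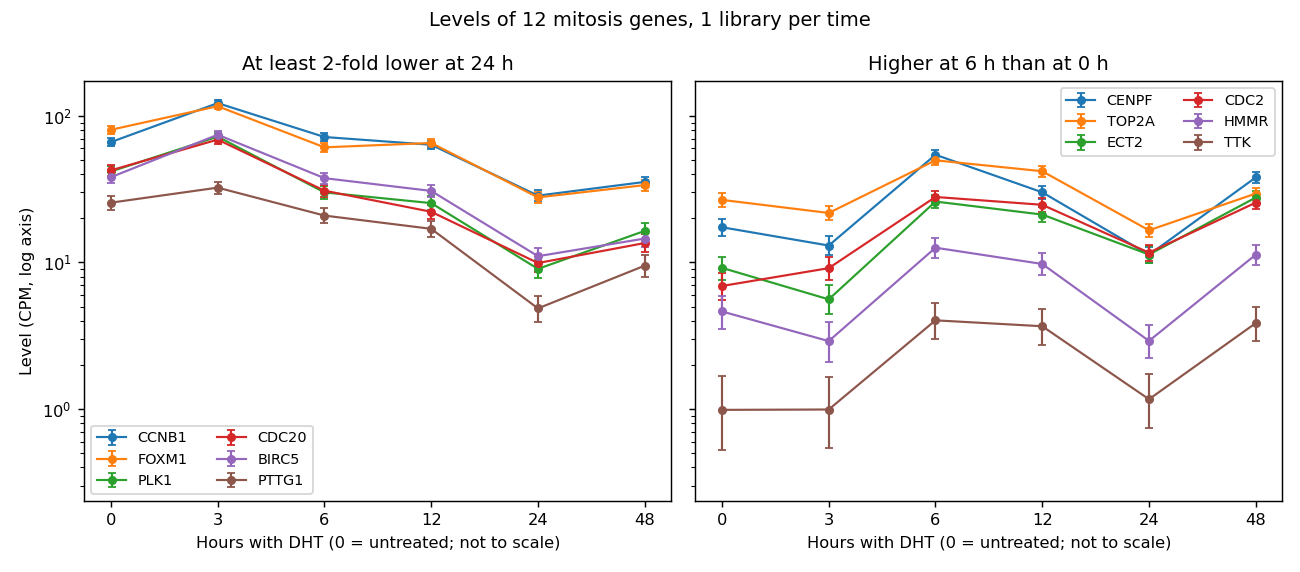
Levels in CPM (log axis) of 12 mitosis genes in the 6 libraries by time, with 95% Poisson intervals for counting error, 1 library per time; left, 6 genes at least 2-fold lower at 24 h, and right, 6 genes higher at 6 h than at 0 h. The genes on the left have their highest level at 3 h, such as CCNB1 at 122 CPM, while those on the right have it at 6 or 48 h, such as CENPF at 54.3 CPM and ECT2 at 27.7 CPM; from 6 h on all 12 are lowest at 24 h.

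At 3 h 0 members were at least 2-fold higher (0.747% of all measured genes) and 0 lower (0.864%), but most lay above 0 h. The median was 0.33, against -0.08 over all genes, and 35 of 46 members were above their 0 h level. The interval of the ratio lay above 1 for 27 and below 1 for 5, and the share of all genes with such intervals was not counted. GC-corrected, 1 was higher (CCNB1, 1.04; 0.943% of genes) and 0 lower (0.431%), with a median of 0.45. At 1.5-fold, 11 members were higher, against 2.52% of all measured genes: CCNA2, CCNB1, MYBL2, PLK1, BIRC5, CDCA8, CDC20, UBE2C, KIF20A, KIF2C and MKI67. Of these 11, 9 were at least 2-fold lower at 24 h, all but CCNA2 and MKI67. How many of the 300 measured genes that were 1.5-fold higher at 3 h were lower at 24 h was not counted. BIRC5, with a 3 h ratio of 1.95 (1.75 to 2.17), and MYBL2, with 1.93 (1.74 to 2.14), led them. The 3 h library was the highest of all for 26 members, against 20.6% of all measured genes. Below 0 h with an interval that excluded 1 were ECT2, with a ratio of 0.610 (0.453 to 0.816), HMMR with 0.628 (0.412 to 0.948), KIF11 with 0.694 (0.486 to 0.988), CENPF with 0.750 (0.615 to 0.915) and TOP2A with 0.814 (0.697 to 0.952). All 5 have a GC content of at most 40.8%, and GC-corrected their changes were -0.27, -0.22, -0.12, -0.15 and 0.01.

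At 6 h 9 members were at least 2-fold higher, against 15.3% of all measured genes, and 0 lower (3.01%); the median was 0.16. They were ANLN, CDC2, CENPE, CENPF, ECT2, HMMR, KIF11, NUF2 and TTK, all with a GC content of at most 40.8%. GC-corrected, 0 were higher (3.8% of genes) and 0 lower (1.56%), and the median was -0.12. CENPF, at 17.4 CPM at 0 h and 54.3 CPM at 6 h, kept the largest corrected change, 0.79. At 12 h 4 of 41 members were higher (11.6% of the 11070 genes used), CDC2, ECT2, KIF11 and TTK, and 0 were lower (3.86%); GC-corrected, 0 were higher (4.15%) and 0 lower (3%), and the median moved from -0.01 to -0.26.

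The 23 members with the lower GC content (35.3 to 44.8%) and the 23 with the higher (45.2 to 59.9%) followed different courses before correction and closer ones after it. The lower ones had medians of 0.00, 0.86, 0.56, -0.56 and 0.41 at 3, 6, 12, 24 and 48 h, and the higher ones 0.55, -0.28, -0.33, -1.31 and -0.80. All genes in the same ranges of GC content had -0.23, 0.81, 0.67, 0.50 and 0.69, and 0.01, -0.10, -0.08, -0.25 and -0.27. GC-corrected, the members had 0.25, 0.04, -0.19, -1.07 and -0.39 in the lower range and 0.62, -0.17, -0.28, -1.16 and -0.52 in the higher. At 24 h the median of the low-GC members lay below 0 h and that of genes of like composition above it; CDC2, CENPE, ECT2 and TTK, at 0.68, 0.34, 0.27 and 0.12, were the low-GC members above 0 h. Lower were 3 of 23 low-GC members before correction and 13 after, against 20 and 17 of the high-GC members. The shares of all genes lower in each range of GC content were not counted.

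**Figure D3:**
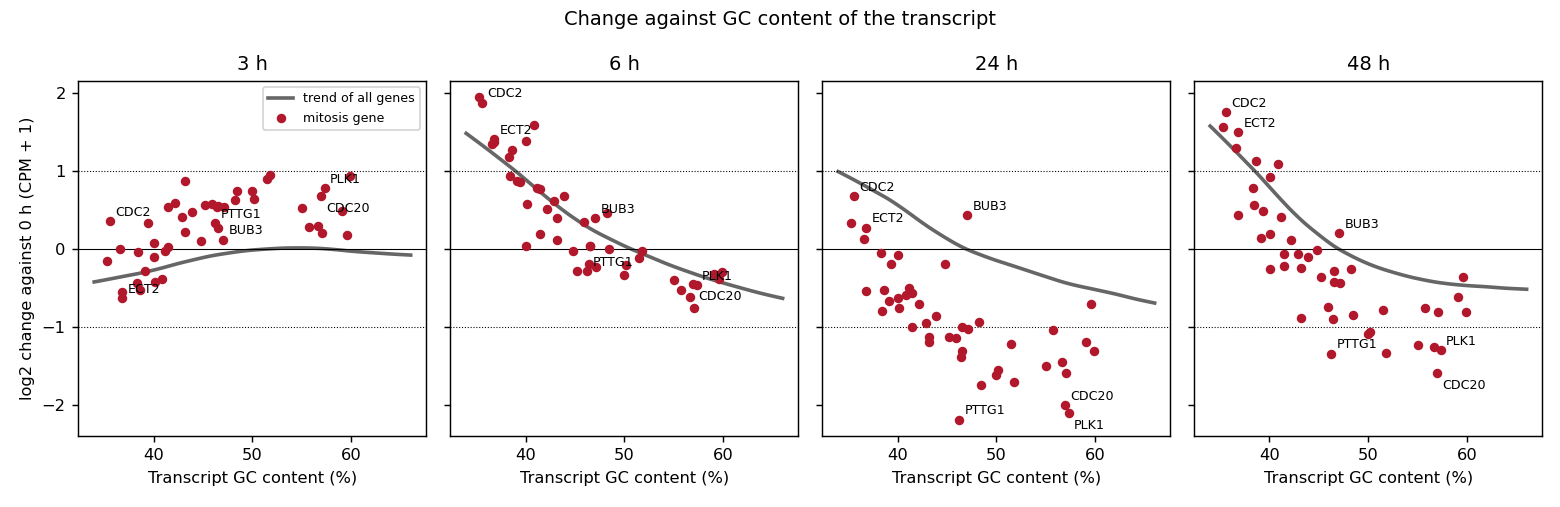
Log2 change against 0 h (vertical axis) by GC content of the transcript in percent (horizontal axis) for the 46 measured mitosis genes (points) at 3, 6, 24 and 48 h, with the trend over 11140 genes (grey line) and dotted lines at 2-fold. At 6 h the points lie along the line (r = -0.85 across members), at 3 h most lie above it, and at 24 h all but BUB3 lie below it.

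At 48 h 8 members were still at least 2-fold lower than at 0 h (7.33% of all measured genes) and 6 were higher (15%), with a median of -0.25 against -0.06. Lower were AURKB, BIRC5, CDC20, FOXM1, KIF2C, PLK1, PTTG1 and UBE2C, and CDC20 had the lowest change, -1.58. Higher were CDC2, CENPE, CENPF, ECT2, HMMR and TTK, all among the 9 that were higher at 6 h. GC-corrected, 5 were lower (4.82%), BIRC5, CCNB1, CDC20, PTTG1 and SPC25, and 0 higher (7.16%), with a median of -0.45. Of the 6, CENPF and HMMR had been below 0 h at 24 h, with -0.58 and -0.52, against 1.09 and 1.13 at 48 h.

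From 24 h to 48 h 45 of 46 members went up, by a median of 0.76 on the log2 scale against 0.08 over all genes. The exception was BUB3, at -0.23. At least 2-fold higher were 9 members (1.53% of all measured genes), and 0 were lower (0.185%): CENPF with a ratio of 3.37 (2.89 to 3.95), HMMR with 3.88 (2.87 to 5.29), DLGAP5, CENPE, ECT2, TTK, CDC2, CDC25C and ANLN. With the GC trend of this step removed, CENPF (1.48), HMMR (1.35), DLGAP5 (1.05) and CDC25C (1.01) were higher (0.754% of genes) and 0 lower (0.224%); the other 5 no longer reached 2-fold. PLK1 and PTTG1, among the lowest at 24 h, were at 1.82 (1.496 to 2.21) and 1.96 (1.505 to 2.55) times their 24 h level, and at 0.393 and 0.372 times 0 h. In all, 41 members were below 0 h at 24 h and above their 24 h level at 48 h. For neither these 41 nor the 45 that went up was the share of all measured genes counted.

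Other genes of the pathway were set beside the members. At 24 h 10.8% of all measured genes were lower and 10.5% higher (GC-corrected 6.58% and 7.09%), the shares to set beside the counts of each list. Of 42 further cell cycle regulated mitosis genes 10 were lower at 24 h and 1 higher, with a median of -0.48 (GC-corrected 7, 1 and -0.71). TROAP, CDCA3, FAM64A and CIT (citron kinase) led them with -1.82, -1.76, -1.62 and -1.49; the higher one, CKAP2 at 1.31, is named after its value was seen, and was at 0.59 after correction. The higher one after correction was TUBB2C, also named after its value was seen, at 0.69 before and 1.19 after. Genes that act in mitosis but are less known for transcription tied to the cell cycle are given next. The next list held 13 genes, the constitutive subunits of the anaphase promoting complex and its activator FZR1. Of these 0 were lower and 1 higher (ANAPC13, 1.26), with a median of 0.04 (GC-corrected 0.17 over 11). FZR1 was at -0.20 (GC-corrected 0.43). The 5 members that are partners of the complex or encode separase were all lower. Cohesin is the ring that holds sister chromatids together until separase cuts it. The 11 genes of cohesin, its loaders and its regulators, called the cohesin genes, had 0 lower and 5 higher and a median of 0.76. They were led by ESCO1 with 1.92, PDS5B with 1.58, STAG2 with 1.25 and NIPBL with 1.18. GC-corrected, the median of 10 was 0.42 and 1 was higher (ESCO1, 1.07).

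The 11 DREAM and MuvB subunits had 0 lower (10.8% of all measured genes) and 2 higher (10.5%), LIN52 with 1.52 and LIN54 with 1.24. Their median was 0.17, or -0.06 GC-corrected with 1 higher (LIN52, 1.27). Of 9 genes that restrain mitotic entry or control the exit phosphatase, 0 differed by 2-fold at 24 h, with a median of 0.10 (GC-corrected -0.18); PKMYT1 and WEE1, the kinases that inhibit CDK1, were at -0.94 and -0.71 and ENSA at -0.89, with GC-corrected values of -0.21, -0.51 and -1.01. GC-corrected, ENSA and PPP2R2A (-1.04, named after its value was seen) were lower. Of 26 DNA replication and G1/S genes 4 were lower at 24 h (10.8% of all measured genes) and 1 higher (10.5%). Their median was -0.44 (GC-corrected -0.39, 1 lower and 1 higher of 25), against -0.97 for the mitosis genes. MCM2, CCNE1 and CDT1 were at -1.20, -1.08 and -1.05, while CDC6, which loads the replicative helicase, was at 1.23. At 3 h the medians of these genes and of the mitosis genes were 0.37 and 0.33.

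**Figure D4:**
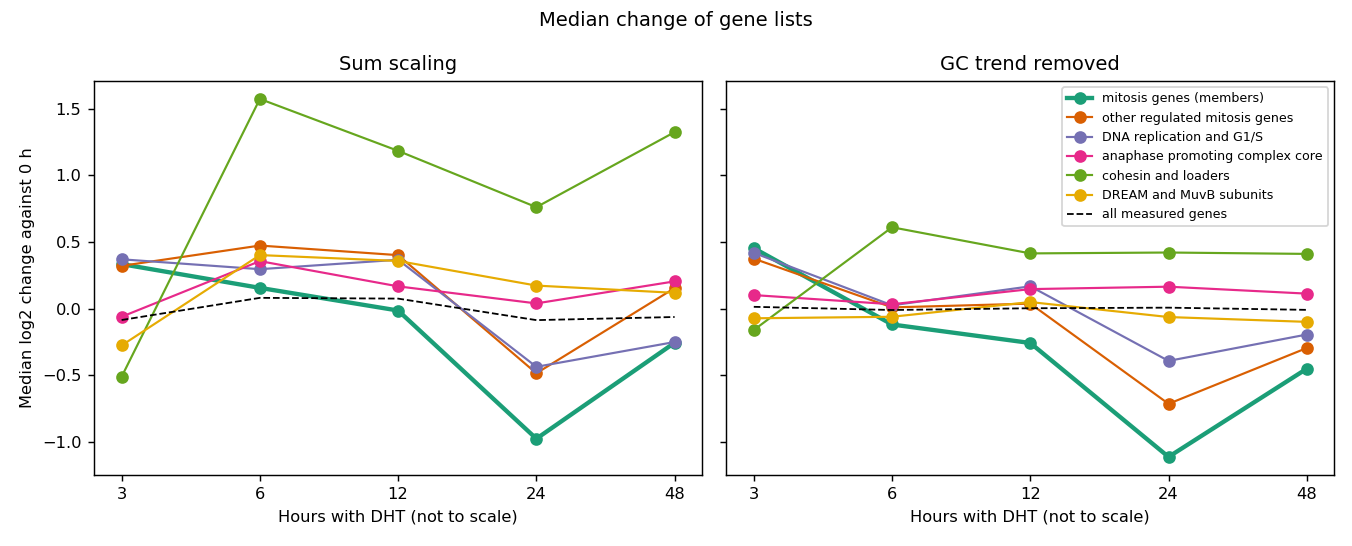
Median log2 change against 0 h (vertical axis) of the mitosis genes and of other gene lists at 3, 6, 12, 24 and 48 h with DHT, as scaled to the sum of counts (left) and with the trend on GC content removed (right); the dashed line is the median of all measured genes. The mitosis genes have the lowest median of the lists drawn at 24 h, -0.97 on the left and -1.11 on the right, and the cohesin genes the highest, 0.76 and 0.42.

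Members near the threshold at 24 h were, just inside, PRC1, CKS2, CENPA and UBE2S at -1.003, -1.002, -1.03 and -1.04, and, just outside, BUB1 and MKI67 at -0.95 and -0.93. With libraries scaled by trimmed means (TMM), which moved the median of all genes at 24 h by 0.13, 18 members were lower, without BUB1B, CENPA, CKS2, PRC1 and UBE2S. The share of all genes lower under TMM was not counted.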

How the data were processed

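RNA of LNCaP cells was sequenced on an Illumina GAIIX, per the labels' protocols, with 1 library at each of 6 times. The deposited table held, per the file headers, a count of tags and an RPM value for each transcript and library. The authors' RPM values were used only through their denominator, as an alternative scaling; all changes came from the deposited counts. The build was hg19, per the submitters' processing notes. How reads were aligned and counted, and whether by strand, is not given in the sources used here, so reads of overlapping antisense genes may be included.

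Of 18051 lines 50 exact repeats were removed, and transcripts of 1 symbol were added up, giving 17990 genes. Counts were scaled to the sum of listed counts (CPM), 86.9 to 89.5% of the deposited denominator. A floor of 3 counts equals 0.146 to 0.228 CPM. The change was log2 with a pseudocount of 1 CPM, which understates changes of low genes, for genes that averaged 20 counts or more. Levels have exact Poisson and ratios exact conditional binomial 95% intervals; no molecular identifiers are named, so these cover counting error only. GC content came from GENCODE 29 transcripts matched by accession (93.5% of measured genes, all measured members), and a lowess trend over all genes (span 0.3) was subtracted. At 12 h 846 genes on chromosome 4, on chromosome 15 beyond and including LCTL, or of unknown chromosome were left out, by a RefSeq table on GRCh38.p14, which also gave the promoters. The groups came from the sample labels. Alternatives were median-of-ratios and TMM scaling (edgeR 4.0.16), the deposited denominator, another pseudocount, count filter and rule of size, GC correction and, chosen after seeing the data, the 3 h library as base. The procedure was tested on simulated data. Python 3.11.15, statsmodels 0.14.6, scipy 1.17.1 and R 4.3.3 were used.

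The members, lists and rules were chosen with earlier results of these data known. Levels in every library were given for the members with the lowest and the highest change at 24 h in each role group and for MKI67, TOP2A, CCNB1, CDC2, FOXM1 and PLK1, and of each other list up to 4 genes with the largest change at 24 h were named. Other members singled out, such as CENPF, were chosen after their values were seen. KIFC1, KIF18B, KPNA2, CCNE2 and LST1 were not matched, and KIF22 was under the count minimum.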

Additional observations from a re-analysis of the deposited data

Results flagged for a closer look

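The members' median log2 change was 0.33 at 3 h and -0.97 at 24 h, of opposite sign relative to 0 h. Of the 6 members at least 2-fold higher at 48 h, 2 had been below 0 h at 24 h: CENPF, with -0.58 at 24 h and 1.09 at 48 h, and HMMR, with -0.52 and 1.13. With the GC trend removed, none of the 6 was higher by 2-fold at 48 h (CENPF 0.41, HMMR 0.14). At 24 h all 6 lay below the trend of genes of like GC content (CDC2 -0.21, CENPE -0.57, CENPF -1.07, ECT2 -0.53, HMMR -1.20, TTK -0.69). Before correction CDC2, CENPE, ECT2 and TTK lay above 0 h at 24 h, at 0.68, 0.34, 0.27 and 0.12. With 1 library at each time these differences between times were not tested.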

How the results depend on the processing

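No paired analysis was possible because each group has 1 library, and for the same reason no library could be left out of a group. The number of members lower at 24 h (23) was 19 with median-of-ratios scaling, 18 with TMM, 20 with the deposited denominator, 24 with a pseudocount of 0.25 CPM, 23 without the count filter, 21 at a mean of at least 100 counts and 30 with the GC trend removed; the median ran from -0.85 to -1.12 over these. At 1.5-fold, with the share of all measured genes in parentheses, there were 1 lower (8.13%) and 11 higher (2.52%) at 3 h. There were 2 lower (13.4%) and 16 higher (28.5%) at 6 h, and 4 (13.4%) and 8 (25.9%) at 12 h. At 24 h 32 were lower (24.2%) and 1 higher (21.6%), and at 48 h 17 lower (22%) and 8 higher (25.4%). From 24 to 48 h 27 changed (11.3%). With TMM 2 were higher at 3 h, BIRC5 and MYBL2. The shares of all genes called under the other scalings, the other pseudocount and the other count filters were not counted. With the GC trend removed 1 was higher at 3 h, 0 at 6, 12 and 48 h, 5 were lower at 48 h and 4 changed from 24 to 48 h, and the median at 6 h was -0.12, of the opposite sign. The median at 6 h also changed sign at a mean of at least 100 counts, to -0.0012, and that at 12 h without the count filter, to 0.037; both medians lie close to 0. Against the 3 h library, a base chosen after seeing the data, 5 were lower (1.4% of all measured genes) and 10 higher (20.9%) at 6 h. At 12 h 10 were lower (2.31%) and 7 higher (18%). At 24 h 27 were lower (9.26%) and 0 higher (15.7%), and at 48 h 17 were lower (7.19%) and 7 higher (19.9%). The medians at 6, 12, 24 and 48 h were -0.20, -0.57, -1.33 and -0.63, the first of opposite sign. Here the base itself is higher for most members; the cause of the other differences was not tested. The 92 changes of single members at 24 and 48 h were set against their counting intervals. All 92 moved by less than the interval with median-of-ratios scaling, the deposited denominator or the other pseudocount. With TMM 91 did, and with the GC trend removed 38 did. The count filter does not enter these changes, so leaving it out could not move them. Depth limits TTK and CENPE, which had 13 counts each at 0 h, and KIF18A.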
